A study of Mus musculus with 40 samples.

Results

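CTAL1 is a class of nuclei from the cortical part of the thick ascending limb of the loop of Henle in mouse kidney. Its members were the 563 nuclei, of 16500 in all, that carried the name CTAL1 in the coarser of the 2 forms of the authors' deposited annotation; the finer form named the same nuclei. The nuclei came from the right kidney of 4 male C57BL/6 mice aged 8 to 12 weeks, 24 h after surgery, with 1 library per mouse. Of these, 2 mice had lost the left kidney by surgery (UNx, for unilateral nephrectomy), and the other two had a sham operation that left both kidneys in place; no mouse carried a transgene or deletion named in the labels. Replicate 1 of each group was labelled batch 3 and replicate 2 batch 4, so the replicate number pairs a sham with a UNx mouse. Bulk RNA-seq of whole right kidneys at 24 h, 6 sham and 6 UNx libraries, was available beside the nuclei.

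The thick ascending limb takes up sodium, potassium and chloride from the tubular fluid through the cotransporter NKCC2, encoded by Slc12a1, without letting water follow. The positive voltage this builds in the lumen drives calcium and magnesium between the cells, through tight junction pores that hold claudin-16 and claudin-19, while claudin-10 forms a pore for sodium. The calcium-sensing receptor, encoded by Casr, and hormones such as prostaglandin E2 set how much is taken up, and the segment secretes uromodulin (Umod) and epidermal growth factor (Egf).

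CTAL1 nuclei numbered 183 in sham replicate 1, 84 in sham replicate 2, 196 in UNx replicate 1 and 100 in UNx replicate 2. Summed over these nuclei, the libraries held 1268058, 893377, 1525138 and 912194 unique molecular identifiers (UMIs, counted molecules) in the same order, and the median nucleus held 6690 to 8238. Levels are given as CPM, the counts of a gene per 1000000 counts of all CTAL1 nuclei of a mouse. The batches stood apart: mitochondrially encoded genes took 0.802% and 1.15% of CTAL1 counts in the batch 3 mice and 5.88% and 8.18% in the batch 4 mice. The summed level of 10 proximal tubule markers in CTAL1 nuclei was 518 and 576 CPM in batch 3 and 3705 and 3502 CPM in batch 4. With the group as the other term, edgeR called 2335 of 10282 genes different between the batches. Of the barcodes in CTAL1, 1 was also present in another library, and none was shared by CTAL1 nuclei of 2 libraries.

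The class carried the markers of its name. Slc12a1 had a UMI in 563 of 563 nuclei, Umod in 561 and Cldn16, which encodes claudin-16, in 328. In the proximal tubule class PTS1 of batch 4, Slc12a1 had a UMI in 94.8% (sham) and 94.7% (UNx) of nuclei. Umod had one in 97.8% and 97.0% of them, and Cldn16 in 5.20% and 5.35%. In batch 3 the PTS1 shares were 29.3% and 44.8% for Slc12a1 and 30.3% and 42.9% for Umod. A UMI of Slc12a1 or Umod alone thus did not mark the class in batch 4. Slc12a1 was at 14783 ± 1784 CPM (SD, n = 4 mice), beside 17026 ± 2423 in CTAL2, the other cortical class, 17271 ± 2265 in the medullary class MTAL and 1198 ± 1270 in the distal convoluted tubule class DCT. Umod was at 2408 ± 341 CPM in CTAL1, 2677 ± 305 in CTAL2 and 1245 ± 151 in MTAL. The SDs of the cortical classes overlapped for both genes, although within each mouse CTAL1 was the lower one, by log2 ratios of -0.30 to -0.06 for Slc12a1 and -0.38 to -0.01 for Umod. The 8 markers of the macula densa, the sensor cells at the end of the limb, summed to 16.9 to 42.9 CPM a mouse in CTAL1, of which Robo2 held 22.1 ± 10.4 CPM and Etv1 9.13 ± 6.63 CPM. The defining marker Nos1, the neuronal nitric oxide synthase, was at 0.508 ± 0.475 CPM, beside 1137 ± 184 in the macula densa class MD, and Ptgs2 had 0 counts over the 4 mice, which allows a level of up to 0.652 CPM.

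The starts of 4 genes described below are shown here: Cldn16 and Tmem207, because they lie side by side in the genome and both lead on the CTAL1 side, Kcnj10 as a potassium channel gene of that side, and Cldn10, because it has more than one start. They were chosen after their values were seen. In mm10, Cldn16 is at chr16:26463135-26482765 on the plus strand and Tmem207 at chr16:26503656-26526769 on the minus strand. Their nearer ends are 20890 bases apart, with 0 protein-coding genes between them, and they are transcribed towards each other. Kcnj10, the basolateral potassium channel Kir4.1, is at chr1:172341210-172374085. Cldn10 is at chr14:118787908-118875489 and has 2 starts in RefSeq, so counts from the 3′ end of its RNA cannot tell its forms apart. The 250 bases before each start (RefSeq, GRCm38.p6, written 5′ to 3′ on the strand of the gene) are as follows, with capitals for a match to the letters GTTAAT on either strand, the core of a site of the factor HNF1.
Cldn16 (chr16:26462885-26463134, plus strand): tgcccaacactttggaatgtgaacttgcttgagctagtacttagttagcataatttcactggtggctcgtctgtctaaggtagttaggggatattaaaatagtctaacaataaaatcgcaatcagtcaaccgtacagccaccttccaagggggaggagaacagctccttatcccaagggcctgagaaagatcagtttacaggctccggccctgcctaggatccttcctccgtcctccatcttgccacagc
Tmem207 (chr16:26526772-26527021, minus strand): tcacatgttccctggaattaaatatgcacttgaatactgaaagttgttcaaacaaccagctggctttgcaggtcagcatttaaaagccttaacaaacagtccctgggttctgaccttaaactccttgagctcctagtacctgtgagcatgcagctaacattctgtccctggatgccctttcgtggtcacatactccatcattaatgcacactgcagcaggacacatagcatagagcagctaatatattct
Kcnj10 (chr1:172340960-172341209, plus strand): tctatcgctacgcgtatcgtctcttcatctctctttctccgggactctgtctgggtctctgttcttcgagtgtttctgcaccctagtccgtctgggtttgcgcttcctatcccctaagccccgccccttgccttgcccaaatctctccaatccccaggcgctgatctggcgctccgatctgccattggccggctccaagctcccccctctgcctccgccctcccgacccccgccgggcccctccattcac
Cldn10, first start (chr14:118787621-118787870, plus strand): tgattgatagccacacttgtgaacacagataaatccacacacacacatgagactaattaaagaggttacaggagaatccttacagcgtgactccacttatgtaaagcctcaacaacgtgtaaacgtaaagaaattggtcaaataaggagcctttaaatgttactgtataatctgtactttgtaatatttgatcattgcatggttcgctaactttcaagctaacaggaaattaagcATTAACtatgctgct
Cldn10, second start (chr14:118854700-118854949, plus strand): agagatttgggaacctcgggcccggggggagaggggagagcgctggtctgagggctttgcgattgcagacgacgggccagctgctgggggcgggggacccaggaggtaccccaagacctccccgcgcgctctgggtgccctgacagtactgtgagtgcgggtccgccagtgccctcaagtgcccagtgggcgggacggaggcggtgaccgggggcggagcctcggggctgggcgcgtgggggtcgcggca
These letters were present in 6.43% of 32851 RefSeq promoter windows of this length. It was found in 1 of 11 windows of the leading CTAL1 genes with an entry and 0 of 9 of the leading CTAL2 genes. The 9-base site of the estrogen-related receptors, TCAAGGTCA, was in 0.387% of all windows and in 0 of the 11 and 0 of the 9.

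Beside CTAL2, CTAL1 held more RNA of Tmem207, Nrxn3, Itpr2, Kcnj10 and Cldn16 and less of Robo3, Cacnb2, Irx1 and Ptger3. The classes were made by clustering the same nuclei, so these differences are a description without a test. Of 3383 genes with a mean log2 level of at least 6 in the higher class, 33 (0.975%) were at least 2-fold higher in CTAL1 and 29 (0.857%) at least 2-fold lower, with the same sign in all 4 mice. The ratios below are of CPM + 2 within a mouse.

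Among the tight junction genes, Cldn16 was at 174 and 117 CPM in the sham mice and 219 and 146 CPM in the UNx mice in CTAL1, against 24.4, 40.9, 50.5 and 48.3 CPM in CTAL2. Every CTAL1 value lay above every CTAL2 value, with a mean log2 ratio of 1.96. Of 23 classes with at least 10 nuclei in each mouse, CTAL1 had the highest Cldn16 level. Cldn10 went the other way, at 114 ± 47.3 CPM in CTAL1 and 268 ± 39.1 CPM in CTAL2, a mean log2 ratio of -1.33. Its level in CTAL1 was close to that in DCT, 116 ± 108 CPM, and PTS1 nuclei of the proximal tubule held 424 ± 66.7 CPM; the part of free RNA in the CTAL1 value was not tested. Cldn19, the partner of claudin-16, was at 63.9 ± 16.6 CPM in CTAL1 and 56.1 ± 12.2 CPM in CTAL2, within the spread between mice.

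After each nucleus was thinned to 3000 UMIs, Cldn16 was seen in 34.1%, 25.0%, 39.0% and 29.0% of CTAL1 nuclei (sham replicates 1 and 2, then UNx replicates 1 and 2). The same share was 6.98%, 12.9%, 11.6% and 15.4% in CTAL2 and 0.106%, 1.49%, 0% and 2.09% in PTS1, which should lack the gene. Before thinning, the shares in CTAL1 were 57.4%, 52.4%, 65.3% and 51.0%, and median depths were 6690 to 8238 UMIs in CTAL1, 6342 to 7780 in CTAL2 and 8358 to 12414 in PTS1. Thinning left out 1 CTAL1 nucleus of sham replicate 1 and 1 of UNx replicate 1.

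Among channels and signalling genes, Kcnj10 was at 85.2, 89.0, 107 and 95.4 CPM in CTAL1 against 7.11, 5.57, 4.73 and 15.3 CPM in CTAL2. The level in CTAL1 resembled that in DCT, 93.9 ± 30.3 CPM, and in the connecting tubule class CNT, 107 ± 37.9 CPM. Tmem207 had the largest ratio, at 772 ± 358 CPM in CTAL1 and 22.2 ± 12.3 CPM in CTAL2 (mean log2 ratio 4.99), yet MTAL held 534 ± 192 CPM, so it did not set CTAL1 apart from the medullary limb. Itpr2, an intracellular calcium release channel, was at 751 ± 226 CPM against 78.9 ± 46.6, and Nrxn3, a neurexin adhesion protein, at 1215 ± 391 against 57.8 ± 23.7. The Itpr2 level of CTAL1 resembled that of PTS1, 722 ± 255 CPM. It lay below those of the intercalated cell classes ICA, 2165 ± 938, and ICB, 2002 ± 734. Wnk1, a kinase upstream of the cation-chloride cotransporters, was at 1948 ± 893 CPM against 618 ± 132, with 4236 ± 2098 in DCT and 2219 ± 912 in CNT. Casr was at 744 ± 136 CPM in CTAL1 and 433 ± 50.9 in CTAL2, and CTAL1 was the highest of the 23 classes.

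On the other side, the prostaglandin E2 receptor gene Ptger3 was at 232 ± 76.6 CPM in CTAL1 and 828 ± 155 CPM in CTAL2. Irx1 and Irx2, transcription factors of the Iroquois family, were at 11.9 ± 5.03 and 9.89 ± 2.51 CPM in CTAL1 and 72.2 ± 15.5 and 60.5 ± 13.7 CPM in CTAL2. Irx3 of the same family went the other way, at 23.2 ± 7.02 CPM in CTAL1 and 8.87 ± 4.67 CPM in CTAL2 (mean log2 ratio 1.26). Cacnb2, a calcium channel subunit, was at 80.5 ± 36.4 against 507 ± 191 CPM. Among the salt transport genes, the potassium channel gene Kcnj1 was at 323 ± 47.9 CPM in CTAL1 and 348 ± 52.8 CPM in CTAL2, a difference below the SD between mice. Kcnma1, a large-conductance potassium channel gene, was lower in CTAL1, at 14.5 ± 4.72 CPM in CTAL1 and 49.8 ± 18.0 CPM in CTAL2.

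**Figure D1:**
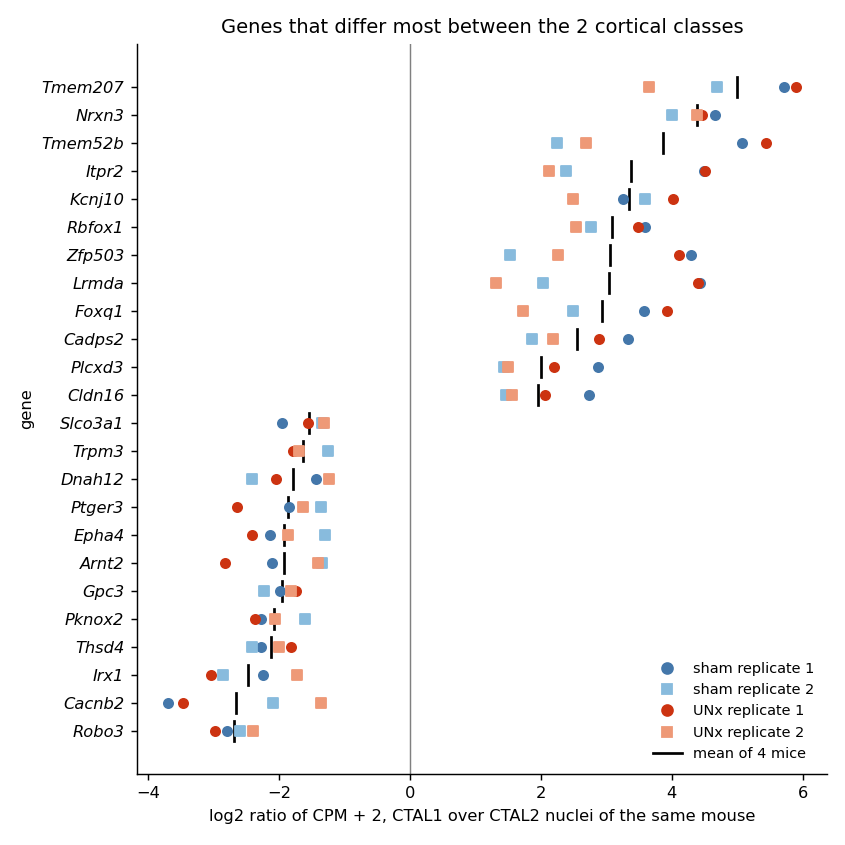
Log2 ratio of CPM + 2 in CTAL1 over CTAL2 nuclei of the same mouse (x axis) for the 12 genes with the largest ratios on each side (y axis). Points are mice, coloured by group and shaped by replicate, and bars are means; Tmem207 has the largest mean, 4.99, and Robo3 the lowest, -2.69, and each gene keeps its sign in all 4 mice.

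**Figure D2:**
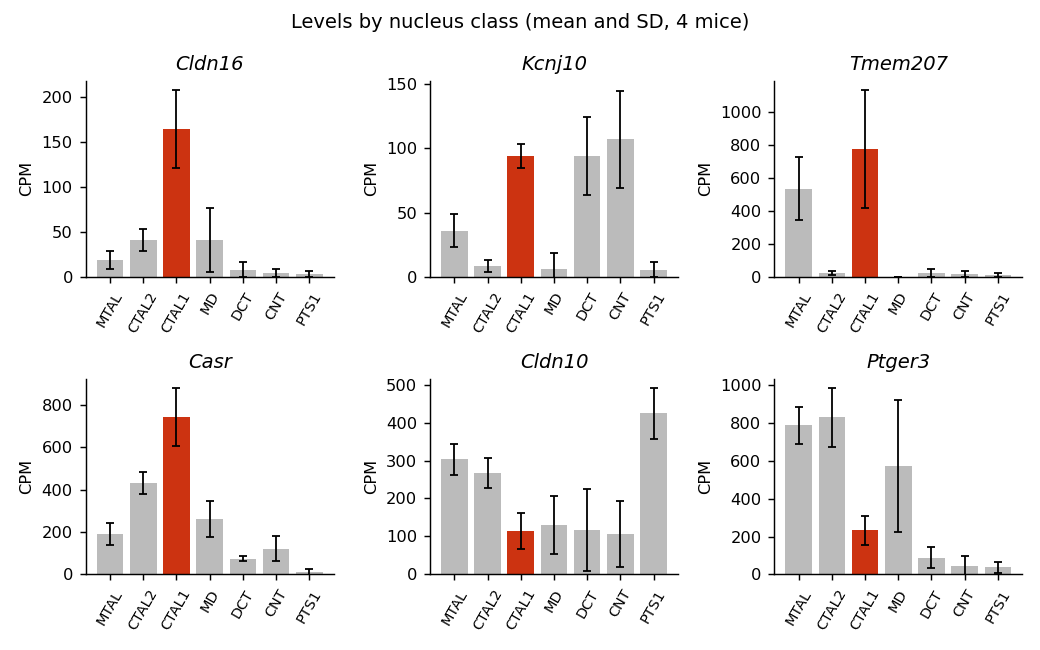
CPM (y axis) of 6 genes in 7 nucleus classes, as the mean and SD of 4 mice, with CTAL1 in red. Cldn16 and Casr are highest in CTAL1, Kcnj10 is as high in DCT and CNT, Tmem207 is shared with MTAL, and Cldn10 and Ptger3 are lower in CTAL1 than in CTAL2 or MTAL.

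Set against all nuclei outside the class, 273 of 3872 genes (7.05%) were at least 2-fold higher in CTAL1 and 552 (14.3%) at least 2-fold lower in all 4 mice. The largest mean log2 ratios were those of Nrxn3 (5.19), Enox1 (4.88), an oxidase at the cell surface, and Cldn16 (4.20). The classes nearest to CTAL1 shared part of this: Enox1 was at 1449 ± 428 CPM in CTAL1 and 1927 ± 861 in MD, and Egf at 11467 ± 2036 CPM in CTAL1 and 8920 ± 1716 in CTAL2, against 1007 CPM over all other nuclei. Col5a2, a chain of the fibrillar collagen V, was also among the leading genes, at 637 CPM against 38.8 CPM.

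The share of CTAL1 among all nuclei was 3.43% (exact Clopper-Pearson 95% interval 2.95 to 3.95%) and 3.18% (2.54 to 3.92%) in the sham mice, and 3.81% (3.30 to 4.36%) and 2.97% (2.42 to 3.60%) in the UNx mice. The groups overlapped, and the ratio of the mean shares was 1.03. These intervals cover counting error only. With 2 mice a group an exact two-sided permutation test cannot go below p = 0.333.

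After nephrectomy the CTAL1 nuclei held less RNA of Col5a2, Socs2, Usp24, Lgr4 and Pappa and more of Mef2c, Pik3r3 and Cables1 in both batches, by the fit that takes the batch into account. In the fit without the batch, edgeR's quasi-likelihood test called 0 of 10282 genes (0%) at a Benjamini-Hochberg adjusted p under 0.05, 67 had an unadjusted p under 0.05, and DESeq2 and limma voom called 0 as well. With the replicate number as a block, the same test called 62 genes (0.603%), 32 higher (0.311%) and 30 lower (0.292%) in UNx. That fit rests on 1 residual degree of freedom, against 2 without the block, and the count moves with the tool: with the block, DESeq2 called 1 gene, Col5a2, and limma voom 113. Nothing in the labels says that a mouse was sampled more than once, and each library is 1 mouse.

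Col5a2 showed the clearest difference. It was at 1503 and 600 CPM in the sham mice and 310 and 137 CPM in the UNx mice. Both UNx values lay below both sham values, but a rule that named the gene asked for this. Over all tested genes, the groups did not overlap in 22.3%. Within batch 3 and batch 4 the log2 differences of Col5a2 were -2.27 and -2.11. Its log2 fold change was -2.17 ± 0.159 (SE) with the block (edgeR adjusted p = 2.1e-09) and -2.19 ± 0.609 without it (adjusted p = 1.000). Without the block and without sham replicate 1 it was -1.37. A fit without 1 mouse leaves its group in a single batch, so its change also holds the difference between batches. Counts behind the CPM levels were 1906 and 536 in sham and 473 and 125 in UNx. After thinning, Col5a2 was seen in 48.9% and 47.6% of sham nuclei and 32.8% and 24.0% of UNx nuclei, beside 0.634% to 3.16% of PTS1 nuclei. It was also lower in CTAL2 (-2.02 ± 0.204, adjusted p = 0.00610 with the block), while the MTAL value, -1.70 ± 0.250, was not called (adjusted p = 0.103). In whole kidney it was at 21.1 to 32.0 CPM in sham (median 25.1) and 23.2 to 33.8 CPM in UNx (median 29.5), a log2 fold change of 0.17 ± 0.0966 that was not called (adjusted p = 0.198).

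With the block, Pappa, Lgr4, Ccbe1 and Ctsc also fell. Pappa, a protease that frees insulin-like growth factors from a binding protein, was at 226 and 105 CPM in sham and 72.2 and 43.3 CPM in UNx (-1.46 ± 0.201, adjusted p = 0.000558). Lgr4, a receptor for R-spondins, was at 790 and 601 CPM and then 435 and 262 CPM (-0.97 ± 0.153, adjusted p = 0.00150). For both, the 2 groups did not overlap, as in 22.3% of all tested genes, and a rule that named Pappa asked for this. In bulk tissue Lgr4 was lower as well (-0.30 ± 0.0598, adjusted p = 0.00238), whereas Pappa was higher (0.61 ± 0.159, adjusted p = 0.0106); in bulk, fewer cells of a type and less RNA per cell cannot be told apart. Ccbe1, a secreted protein of lymphatic growth, was at 57.6 and 29.8 CPM in sham and 9.51 and 7.67 CPM in UNx (-2.36 ± 0.369, adjusted p = 0.00150), on 7 to 73 counts a mouse. Ctsc, the protease cathepsin C, was at 177 and 70.5 CPM and then 59.7 and 24.7 CPM (-1.52 ± 0.217, adjusted p = 0.000650). Without the block, leaving out sham replicate 1, so that sham was batch 4 alone, brought Pappa from -1.46 to -0.78 and Ctsc from -1.51 to -0.68.

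Among intracellular signalling genes, Socs2, which restrains growth hormone signalling through STAT5, was at 52.0 and 51.1 CPM in sham and 14.4 and 13.2 CPM in UNx. The groups were well apart and the replicates of each nearly equal (-1.85 ± 0.316, adjusted p = 0.00370 with the block). After thinning, Socs2 was seen in 12.3% and 21.0% of sham and 8.36% and 4.14% of UNx nuclei of CTAL2. In PTS1 the shares were 4.33% and 8.18% in sham and 1.69% and 0.930% in UNx, so lower UNx values were not particular to CTAL1. Usp24, a deubiquitinating enzyme, was at 525 and 576 CPM in sham and 285 and 257 CPM in UNx (-0.98 ± 0.154, adjusted p = 0.00150). Bcl6, a transcriptional repressor, rose from 15.0 and 22.4 CPM to 57.7 and 43.9 CPM (1.53 ± 0.315, adjusted p = 0.0153), and fell in bulk tissue (-1.72 ± 0.570, adjusted p = 0.0356), where UNx replicate 1 stood apart at 44.6 CPM. The blocked call of Bcl6 held in 5 of 8 fits with the block and was lost with equal nuclei per mouse (adjusted p = 0.0952), with size factors of DESeq2 (0.0610) and with DESeq2 (1.000). Pik3r3, a regulatory subunit of phosphoinositide 3-kinase, was at 59.1 and 68.0 CPM in sham and 133 and 110 CPM in UNx (0.99 ± 0.205, adjusted p = 0.0162), and rose in bulk tissue (0.36 ± 0.0742, adjusted p = 0.00262). Mef2c, a transcription factor, was at 17.3 and 33.6 CPM and then 76.8 and 60.1 CPM (1.55 ± 0.299, adjusted p = 0.0102). Cables1, a regulator of cyclin-dependent kinases, was at 37.4 and 66.0 CPM and then 104 and 109 CPM (1.15 ± 0.225, adjusted p = 0.0104). With size factors of DESeq2 the blocked calls of Pik3r3 (0.0608), Mef2c (0.0537) and Cables1 (0.0504) were lost too, while Socs2 and Usp24 kept theirs. The groups did not overlap for any of these 6 genes, as in 22.3% of all tested genes. All but Cables1 were named by a rule that asked for this, so it is no further support.

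**Figure D3:**
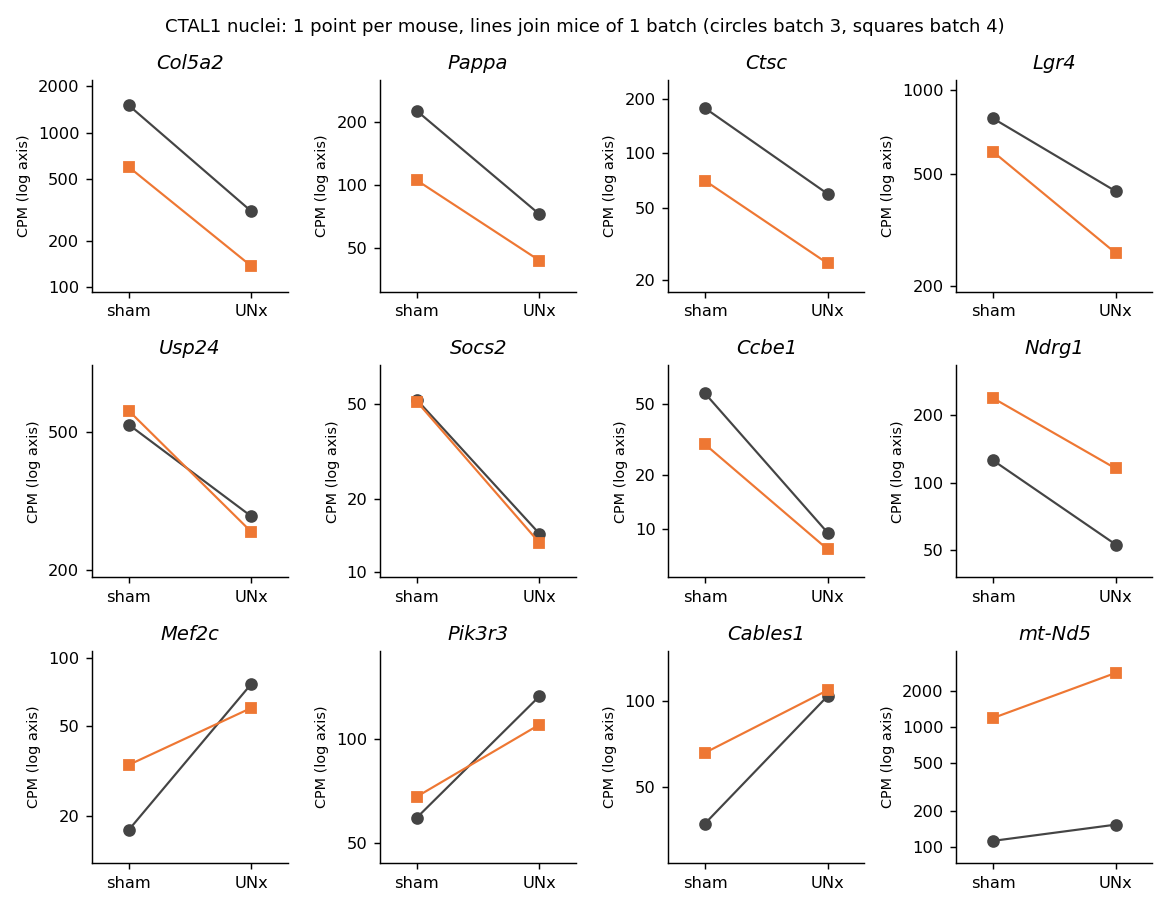
CPM on a log axis (y) of 12 genes in CTAL1 nuclei of each sham and UNx mouse (x), with lines joining the mice of one batch. Socs2 and Usp24 separate the groups in both batches, and mt-Nd5 separates the batches more than the groups.

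Without the block, the genes of lowest p whose groups did not overlap also included Ryr2, an intracellular calcium channel, Adgrg3, Neurl1b, Acaca and Cdh6 on the higher side, and Fnip2, Snx21, Nmrk1 and Iah1 on the lower side; none was called without it. Over all tested genes, the groups did not overlap in 2288 of 10282 (22.3%), so lack of overlap is common here. With the block, Ryr2, Adgrg3 and Fnip2 were called, of which Ryr2 (adjusted p = 0.0778) and Fnip2 (0.0910) lost the call with size factors of DESeq2.

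Beside these calls, the mitochondrial share of counts was higher in UNx than in sham within each batch, at 1.15% against 0.802% and 8.18% against 5.88%, as was that of the abundant transcript Gm42418, at 0.323% against 0.256% and 3.77% against 1.61%. The summed level of 6 endothelial markers was lower in UNx within each batch, at 38.3 against 48.5 CPM and 195 against 334 CPM, with 0 of 5 tested markers called and a median log2 fold change of -0.75. The part of these in the calls was not tested. Some calls sat on genes that other nuclei or the batch carry. Of the 32 genes called higher, 4 were mitochondrially encoded, and mt-Nd5 was at 112 and 1189 CPM in sham and 153 and 2828 CPM in UNx. Without the block, its sign turned when UNx replicate 2 was left out and UNx was batch 3 alone. In 13 of the 32 and 11 of the 30 called genes a proximal tubule class held more than CTAL1, and in 5 and 4 more than 4 times as much. The same shares over all tested genes were not counted, so these numbers do not set the called genes apart. Keg1, called lower, was at 97.0 and 749 CPM in sham and 57.0 and 283 CPM in UNx, beside 4016 CPM in the highest proximal tubule class. Without the block, its sign turned when sham replicate 2 was left out and sham was batch 3 alone. Dab2, a proximal tubule adaptor of endocytosis, was at 34.7 and 580 CPM and then 27.2 and 224 CPM, with 3884 CPM in the highest proximal tubule class. The batch 4 values of these genes were the higher ones, as were the proximal tubule marker sums; the part of RNA from other cells was not tested. For Col5a2, Pappa, Ctsc and Ccbe1 the highest proximal tubule class held 14.7, 11.8, 5.81 and 5.66 CPM. Classes outside the proximal tubule held more of some of them. Col5a2 was at 232 ± 232 CPM in MD, 198 ± 127 in DCT and 102 ± 45.1 in the fibroblast class. Ccbe1 in MTAL was at 109 and 20.7 CPM in sham and 70.4 and 19.6 CPM in UNx.

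The counts for genes of the work of the thick limb stand beside 0.603% of all genes called with the block and 0% without it; a count of 0 is near that background and is no result about a list. Of 13 salt transport genes, all were tested and 0 were called in either fit, with a median log2 fold change of 0.04 beside -0.01 over all genes. Slc12a1 was at 16895 and 13222 CPM in sham and 15626 and 13390 CPM in UNx, overlapping groups with a log2 fold change of 0.00 ± 0.126 with the block. Of 21 tight junction and divalent cation genes, 17 were tested and 0 called in either fit, with a median of 0.15. Cldn16 was 0.37 ± 0.174 (adjusted p = 0.596 with the block) in CTAL1, and its groups overlapped. In bulk tissue Cldn16 was at 3.24 to 4.77 CPM in sham (median 3.85) and 5.07 to 7.36 CPM in UNx (median 6.02), a rise of 0.62 ± 0.123 (edgeR adjusted p = 0.00212) with no overlap.

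Hormone control and identity genes gave 3 calls, all with the block. None of the 3 was called with DESeq2 and the block, which called only Col5a2. With size factors of DESeq2, 23 of all 62 blocked calls were kept. Of 23 tested genes of NKCC2 kinase and hormone control, 1 rose and 1 fell. Kl, the co-receptor klotho of the hormone FGF23, rose from 147 and 303 CPM to 304 and 401 CPM (0.76 ± 0.169, adjusted p = 0.0275), and fell in bulk tissue (-0.24 ± 0.0619, adjusted p = 0.0102). Ptger3 fell from 284 and 303 CPM to 136 and 207 CPM (-0.77 ± 0.173, adjusted p = 0.0309). Of 27 tested identity genes 1, Enox1, rose, from 845 and 1449 CPM to 1773 and 1730 CPM (0.71 ± 0.160, adjusted p = 0.0310), with a rise in bulk tissue of 0.78 ± 0.152 (adjusted p = 0.00187). The groups did not overlap for Kl, Ptger3 or Enox1, as in 22.3% of all tested genes. For Kl the sham replicate 2 and UNx replicate 1 values were nearly equal. Kl was at 289 ± 105 CPM in CTAL1 over the 4 mice, below CNT at 1313 ± 458, DCT at 810 ± 274 and PTS1 at 382 ± 14.1 CPM. The part of RNA from other cells in its CTAL1 values was not tested.

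Of the wider lists, 22 cholesterol synthesis genes were tested, and 18 had a positive log2 fold change. The median was 0.35 without the block and 0.40 with it, beside -0.01 over all genes. The groups did not overlap for 5 of the 22, near the 22.3% of all tested genes. The share of all genes with a positive value was not counted. Only Sqle of that list, squalene epoxidase, was called, and only with the block: 7.10 and 27.1 CPM in sham and 22.9 and 62.1 CPM in UNx (1.44 ± 0.335, adjusted p = 0.0411). Of 7 tested immediate early genes 1 was called with the block, Egr1, a growth-induced transcription factor, at 3 and 1 counts in sham and 23 and 17 counts in UNx. Of 12 tested glucocorticoid response genes Zbtb16 rose with the block (1.03 ± 0.233, adjusted p = 0.0310), and of 14 hypoxia response genes Ndrg1 fell (-1.09 ± 0.186, adjusted p = 0.00370). Without the block, Ndrg1 was -1.06, and -0.53 when sham replicate 2 was left out and sham was batch 3 alone. With DESeq2 and the block, Sqle, Egr1, Zbtb16 and Ndrg1 were not called. These single calls stand beside 0.603% of all genes called with the block and say nothing about their lists. With the block, 0 of 12 tested injury and repair genes and 0 of 8 tested cell cycle genes were called, beside 0.603% of all genes, so these counts say nothing about the lists. Havcr1, which encodes the tubular injury marker KIM-1, had 0 counts in CTAL1 of the 2 sham mice, which allows a level of up to 1.39 CPM, and 0.656 and 1.10 CPM in the UNx mice.

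Compared with the neighbouring classes, no gene was shown to respond differently. The test of the difference of the UNx effect between CTAL1 and CTAL2 within mice called 0 of 11781 genes (0%), with 483 at an unadjusted p under 0.05, and DESeq2 called 0. Against MTAL it called 0 of 12407 genes (0%), with 399 at an unadjusted p under 0.05, and DESeq2 called 0. With the block, CTAL2 alone had 5 of 11609 genes called (0.0431%) and MTAL 4 of 13312 (0.0300%), against the 62 in CTAL1. These counts are no test of a difference between classes. Of the 62 genes, 61 were tested in CTAL2 of the same mice, and 58 had the same sign there. The same share over all tested genes was not counted. Both classes come from the same libraries, so this number is no further support for the calls. Among the genes of lowest p in the test of the difference from CTAL2 was Pde10a, a cyclic nucleotide phosphodiesterase. It was at 19.7 and 60.5 CPM in sham and 61.8 and 164 CPM in UNx in CTAL1, and 13.1 and 33.7 and then 19.7 and 23.9 CPM in CTAL2 (difference 1.47 ± 0.396, adjusted p = 0.999). Without the block, the fold change of Pde10a in CTAL1 was 1.55 on the log2 scale, and 0.67 when UNx replicate 2 was left out and UNx was batch 3 alone. On the other side, Slc14a2, a urea transporter gene, had a difference from CTAL2 of -1.66 ± 0.398 (adjusted p = 0.999). Against MTAL, the difference was 1.93 ± 0.349 for Cables1, -1.97 ± 0.421 for Meis2 and -2.02 ± 0.556 for Ccbe1 (edgeR adjusted p = 0.999 for each).

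**Figure D4:**
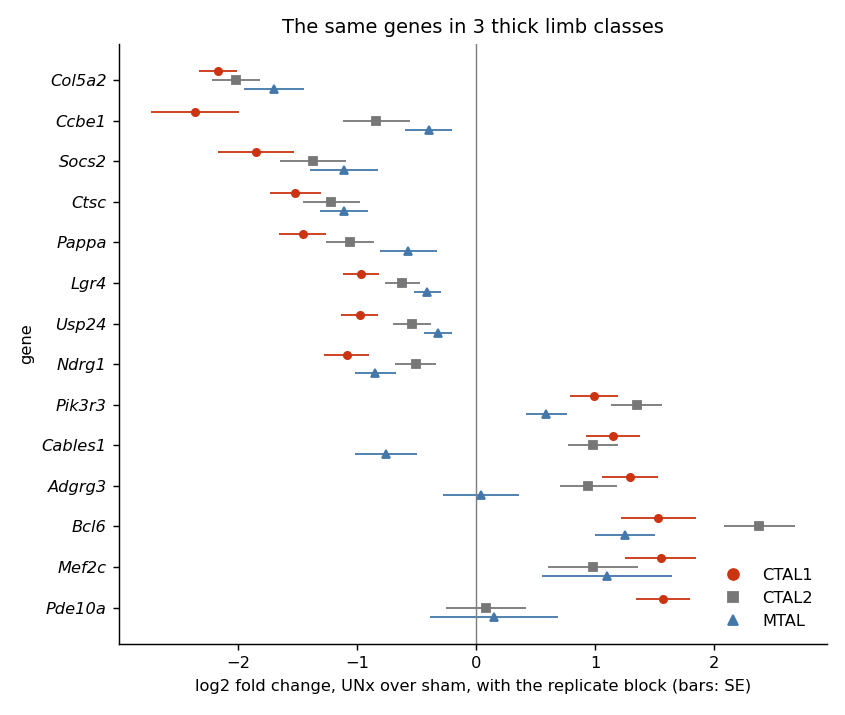
Log2 fold change of UNx over sham with the replicate block (x axis, bars are SE) for 14 genes (y axis) in CTAL1, CTAL2 and MTAL. Col5a2 is negative in all 3 classes, at -2.17, -2.02 and -1.70, and Pde10a is at 1.57 in CTAL1 and at 0.08 and 0.15 in the others.

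In whole kidney at 24 h, edgeR called 3852 of 14104 genes (27.3%), 2001 higher (14.2%) and 1851 lower (13.1%). The counts below were not tested against these shares. Of the 32 genes called higher in CTAL1 with the block, 29 were tested in bulk, where 6 were called higher and 4 lower. Of the 30 called lower, 26 were tested in bulk, where 7 were called lower and 4 higher. These bulk mice were other animals than the 4 mice of the nuclei.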

How the data were processed

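Nuclei were isolated from a section of kidney, sorted on DAPI and run on a 10x Genomics Chromium controller, per the labels' protocols. The authors deposited estimated counts per gene and nucleus, made with alevin on mm10 and handled in Seurat, per the submitters' processing notes; 13.9% of values above 0 were not whole. The authors deposited estimated counts per gene for the bulk libraries too, with Salmon 1.5.0 named in those notes. How classes and doublets were called is not given in the sources used here.

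Counts were summed per mouse and class, rounded, filtered with filterByExpr and tested with edgeR 4.0.16 (TMM factors, quasi-likelihood test, Benjamini-Hochberg adjustment, threshold 0.05); SE is the fold change over the square root of F. DESeq2 1.42.0 and limma 3.58.1 were alternatives, with size factors, filters, nuclei per mouse, left-out mice and the replicate block. The main fit has no block. The labels tie the replicate number to the batch, and deviations of same-numbered mice from their group means correlated at 0.716 across 10282 genes. CTAL1 and CTAL2 were compared as log2(CPM + 2), where the 2 added understates ratios of low genes. Named genes were the 12 called genes of lowest p on each side, filled to 8 with genes of lowest p whose groups did not overlap and whose mean log2 CPM was at least 5, plus the 12 largest ratios between classes, 4 genes on each side for differences between classes, and called list members; the first part was applied to the blocked fit too, a choice made after seeing the data. Unnamed transcripts were passed over. The members and lists were chosen with earlier results of these data known. Scripts were tested on simulated data. A count of 0 allows up to 3 counts of the total. Bulk libraries held 14.9 to 24.1 M counts. Some salt transport genes are not reported here.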

Additional observations from a re-analysis of the deposited data

Results flagged for a closer look

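The bulk levels at 24 h of the genes named above were looked at for a library far from the other 5 of its group, measured by its gap to the nearest one over the range of the group. Of 90 groups, 8 held such a library, and chance alone gives about 1 in 20. Acaca was at 192 CPM in UNx replicate 4, where the nearest library was at 36.2 CPM. Bcl6 was at 44.6 CPM in UNx replicate 1, with the nearest at 20.0 CPM, and Ryr2 at 3.85 CPM in sham replicate 5, with the nearest at 1.75 CPM. The others were Ces2c at 398 CPM and Usp24 at 205 CPM, both in UNx replicate 3, Ccbe1 at 6.94 CPM in UNx replicate 1, Lrrc31 at 4.39 CPM in UNx replicate 5 and Iah1 at 56.7 CPM, the lowest, in UNx replicate 6. These are values of whole kidney and enter no level of the nuclei.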

How the results depend on the processing

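The count of genes called between UNx and sham in CTAL1 was 0 without the block under other size factors, DESeq2, limma voom, a stricter filter, equal nuclei per mouse and without mitochondrial genes, also when each mouse was left out, and 1, Col5a2, with no filter on low counts. With the replicate block it was 62, and, in alternatives chosen after seeing the data, 1 with DESeq2 (Col5a2), 23 with size factors of DESeq2, 113 with limma voom, 131 with no filter, 97 with equal nuclei, 62 with only nuclei that had Slc12a1 and 75 without mitochondrial genes. The cause was not tested. In CTAL2 the count was 0, and 4 with no filter and 5 with the replicate block; in MTAL it was 0, and 4 with the block. The difference between CTAL1 and CTAL2 gave 0 to 10 calls when a mouse was left out, and that between CTAL1 and MTAL 0 to 10, with 8 under no filter; without sham replicate 1 both gave 10, and without UNx replicate 2 the second gave 8. Genes lower in CTAL1 at a minimum log2 CPM of 5 numbered 50 beside CTAL2 and 846 beside all other nuclei. The ratio of shares ran from 0.899 without UNx replicate 1 to 1.15 without UNx replicate 2. A fit without 1 mouse leaves its group in a single batch, so the fold changes that follow also hold the difference between batches. Without the block, leaving out each mouse gave log2 fold changes of -1.02 to 2.98 for mt-Nd3, -2.06 to 3.80 for mt-Nd5, -0.73 to 2.21 for mt-Nd1, -1.52 to 2.84 for mt-Co2, -1.50 to 3.22 for Gramd1b, -0.01 to 3.59 for Slc22a7 and -0.03 to 2.03 for Odc1, negative without UNx replicate 2 (mt-Co2 also without sham replicate 1, at -0.18). Without a change of sign, Col5a2 ran from -2.88 to -1.37, Pappa from -1.91 to -0.78, Ctsc from -2.30 to -0.68, Ndrg1 from -1.75 to -0.53, Pde10a from 0.67 to 2.55 and Adgrg3 from 0.73 to 1.69. Keg1 ran from -2.86 to 0.86 and Nat8f1 to 0.02, positive without sham replicate 2. Bulk calls with the replicate block were 3186, against 3852; the bulk numbers mark no stated pair. The fits rest on 2 mice a group and 2 batches; the common dispersion was 0.153 without the block and 0.0155 with it.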
